A study of Homo sapiens with 6 samples.

Results

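The core spliceosome subunits analysed here are the proteins of the small nuclear ribonucleoproteins (snRNPs), the SF3A and SF3B branch site complexes, the LSM ring, the PRPF proteins, and the helicases and late factors that drive the catalytic steps of splicing. Their 59 genes form a list of symbols taken from general knowledge of the spliceosome. The rule for the list names no expression value, but the list was made with earlier results of these data known. All 59 matched 1 of the 60483 gene identifiers counted in each library. They fall into 12 groups of subunits: U1 snRNP (2 genes), the A and B proteins of U2 snRNP (2), SF3A (3), SF3B (6), the Sm ring (7), U5 snRNP (5), U4/U6 snRNP (4), the LSM ring (7), tri-snRNP joining and recycling factors (4), the PRPF19 complex and its partners (9), DEAD and DEAH box helicases (7), and late catalytic factors (3).

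The spliceosome removes introns from pre-mRNA and is assembled anew on each intron. U1 snRNP marks the start of the intron and U2 snRNP the branch site, the U4/U6.U5 tri-snRNP then joins, and helicases exchange RNA partners until the PRPF19 complex stabilises the catalytic core. Cells express these subunits as housekeeping genes, and dividing cells, tumour lines among them, depend on several of them, such as SF3B1, PRPF8 and the Sm proteins.

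Poly(A) RNA was sequenced from T98G, a long-established line of human glioblastoma cells, as 3 groups of 2 libraries. NT cells were untreated. The shSRPK1 cells had been transiently transfected with a pLKO.1 plasmid that encodes a short hairpin RNA against SRPK1, and the oeSRPK1 cells with a pcDNA3.1 plasmid that carries full-length SRPK1. SRPK1 is a protein kinase whose substrates include the serine- and arginine-rich proteins of splicing. The comparisons ask what less and more of it do to transcripts. Both plasmids went in with Lipofectamine, and no library of cells given an empty or control plasmid was used here, so transfection and SRPK1 cannot be told apart in the comparisons with NT. The pair of transfected groups differs in the plasmid as well as in SRPK1. The 3 comparisons share libraries: each NT library enters both comparisons with NT, and each transfected library enters 2 comparisons. Duplicates are described as biological, but separate cultures are not named, so p-values here reflect only how far these samples spread, and that spread may be technical.

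The promoter sequences of 4 subunits are shown, out of the 6 subunits called below that had 1 RefSeq start. These 4 held extreme differences among the 59. SNRPA was the most raised in shSRPK1 against NT, SNRNP40 the lowest in both transfected groups against NT, and SLU7 and SNRPA1 the highest and the lowest in oeSRPK1 against shSRPK1. BUD31, the highest in oeSRPK1 against NT, was not called and is not shown. Each is the stretch of 250 bases that ends just before the RefSeq start of the gene, on the gene's own strand, 5′ to 3′ (GRCh38.p14). The GENCODE 29 gene bounds given below start elsewhere. By them the stretches of SLU7 and SNRPA lie inside the gene, that of SNRPA1 overlaps the gene's start, and that of SNRNP40 lies before it. Capitals mark matches, on either strand, to the GC box GGGCGG, the ETS core CCGGAAG and the CCAAT box CCAAT.
SLU7 (chr5:160419082-160419331, minus strand): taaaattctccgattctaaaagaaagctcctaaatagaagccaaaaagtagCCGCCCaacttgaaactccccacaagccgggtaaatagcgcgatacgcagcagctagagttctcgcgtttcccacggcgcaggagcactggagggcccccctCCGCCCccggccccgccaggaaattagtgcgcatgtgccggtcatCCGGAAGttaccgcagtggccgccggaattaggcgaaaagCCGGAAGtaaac
SNRPA1 (chr15:101295249-101295498, minus strand): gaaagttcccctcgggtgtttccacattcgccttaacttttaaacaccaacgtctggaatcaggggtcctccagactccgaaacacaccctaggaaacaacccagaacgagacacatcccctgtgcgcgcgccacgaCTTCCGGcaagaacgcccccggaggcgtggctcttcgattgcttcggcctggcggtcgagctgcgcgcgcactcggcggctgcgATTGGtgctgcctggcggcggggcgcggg
SNRPA (chr19:40750953-40751202, plus strand): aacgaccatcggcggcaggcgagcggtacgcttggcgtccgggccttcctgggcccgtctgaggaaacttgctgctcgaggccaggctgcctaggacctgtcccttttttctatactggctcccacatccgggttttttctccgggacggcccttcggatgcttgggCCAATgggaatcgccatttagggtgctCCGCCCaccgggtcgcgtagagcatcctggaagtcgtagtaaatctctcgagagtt
SNRNP40 (chr1:31296789-31297038, minus strand): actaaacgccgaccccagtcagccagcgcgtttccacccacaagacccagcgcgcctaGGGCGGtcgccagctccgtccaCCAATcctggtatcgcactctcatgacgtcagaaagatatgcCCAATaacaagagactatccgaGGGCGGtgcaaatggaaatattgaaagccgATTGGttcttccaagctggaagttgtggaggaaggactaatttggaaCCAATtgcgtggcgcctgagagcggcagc
SLU7 held 2 ETS cores and 2 GC boxes, and SNRPA1 held 1 ETS core and 1 CCAAT box. SNRPA held 1 GC box and 1 CCAAT box, and SNRNP40 held 2 GC boxes and 4 CCAAT boxes, neither with a match to the ETS core. RefSeq gave such a stretch for 54 of the 59 genes, 9 of them with several starts, out of 27305 genes in the table. The ETS core, the letters bound by factors such as GABPA, was present before 31 of the 54 genes (57.4%) and before 10.2% of all genes. The GC box of SP and KLF factors was present before 66.7% against 46.2%, the NRF1 motif (GCGCA and GCGC with 1 base between them) before 20.4% against 6.2%, and the YY1 motif ATGGCGG before 5.56% against 3.44%. For the CCAAT box the shares were 38.9% and 37.0%, for the TATA box TATAAA 3.70% and 13.0%, and for the interferon response core (GAAA and GAAA with 2 bases between them) 9.26% and 3.71%. A gene with several starts was counted once if any of its stretches matched, both strands were searched, and the motifs searched do not overlap in their letters except where they lie over each other in a sequence. No filter on expression or gene type was applied to the table of all genes, while every subunit was expressed in these libraries. The shares therefore cannot show whether a motif is particular to spliceosome genes among expressed genes. They describe letters and were not tested.

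Reads counted in genes ranged from 3891549 in oeSRPK1 2 to 22691215 in oeSRPK1 1, so that 3 reads stood for 0.771 and 0.132 CPM (a read count scaled to the total of its library). Every subunit lay far above these floors, with at least 34 reads in each library. The glioma line markers VIM, CD44 and FN1 were high in all 6 libraries, SOX2 was at 0 in all, and the summed markers of mature astrocytes, leukocytes and endothelium lay under 1 CPM in each. The 4 neuron markers summed to 17.7 to 20.1 CPM in NT, 19.5 to 19.6 in shSRPK1 and 11.4 to 13.2 in oeSRPK1, most of it SNAP25. Those of the oligodendrocyte lineage summed to 1.94 to 2.05 CPM in NT, 1.89 to 2.30 in shSRPK1 and 3.62 to 4.09 in oeSRPK1. The 10 skeletal muscle markers summed to 0.583 to 1.2 CPM in NT, 0.982 to 11.95 in shSRPK1, 224 in oeSRPK1 1 and 2664 in oeSRPK1 2. MYH7, ACTA1 and TTN led this sum. MYL1 lay at 0.259 CPM or less and MB at 0.0956 to 0.517 in all 6 libraries, and TNNT3 rose above 0.151 CPM only in oeSRPK1 2 (1.81). The muscle marker sum was thus higher in both oeSRPK1 libraries than in any NT or shSRPK1 library, so it goes with the group in each oeSRPK1 comparison below. It also differed between the oeSRPK1 libraries, where the median gap of the subunits was 0.10 on the log2 scale without its sign. The source of the muscle marker sum and its part in the oeSRPK1 values were not tested. With the 10 markers left out, the same numbers of subunits were called in edgeR, at 1, 3 and 6. That step took no reads from any subunit, so it cannot show what muscle RNA, if present, adds to their counts. The shSRPK1 libraries differed from each other more than those of the other groups, with a chi-square per gene of 40.7 against 4.11 in NT and 7.41 in oeSRPK1.

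SRPK1 itself, as the check of the labels, stood at 153 and 140.4 CPM in NT cells, 113 and 140.1 after shSRPK1 and 190.3 and 168 after oeSRPK1. Both oeSRPK1 libraries were above the other 4, and shSRPK1 2 was level with the lower NT library. It did not pass in shSRPK1 against NT (log2 fold change -0.21 ± 0.14 SE, edgeR adjusted p = 0.360) or in oeSRPK1 against NT (log2 fold change 0.29 ± 0.14 SE, edgeR adjusted p = 0.175), and it was higher in oeSRPK1 than in shSRPK1 (log2 fold change 0.50 ± 0.14 SE, edgeR adjusted p = 0.0377). The last call did not hold in edgeR without NT 1, NT 2, oeSRPK1 1 or oeSRPK1 2 (adjusted p = 0.0945, 0.0939, 0.308 and 0.0997), or with only the libraries compared (0.0920). With shSRPK1 2 left out, the difference from NT in shSRPK1 passed in edgeR (0.0208). The difference from NT in oeSRPK1 passed without shSRPK1 1 (0.0267) or shSRPK1 2 (0.0319). With only the libraries compared, the difference of SRPK1 between oeSRPK1 and NT passed in edgeR (adjusted p = 0.0232). The directions drawn below are therefore those of the libraries labelled shSRPK1 and oeSRPK1.

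As a set, the subunits had a summed level close to that of NT in both transfected groups when libraries were scaled by TMM. Their CPM, scaled by TMM (a factor that aligns the bulk of genes between libraries), summed to 5194 and 4994 CPM in NT cells, 5319 and 4806 after shSRPK1 and 4996 and 5118 after oeSRPK1. The groups overlapped, and the group means were 0.994 and 0.993 times that of NT, less than the spread between the shSRPK1 libraries. Without that scaling the sums were 5417 and 5195 CPM in NT cells, 5168 and 4664 after shSRPK1 and 4902 and 5098 after oeSRPK1, so that all 4 transfected libraries lay below both NT libraries, at 0.927 and 0.942 times the NT mean. With upper-quartile scaling both oeSRPK1 libraries lay below NT (0.961 times) and shSRPK1 overlapped it. A gene was called at a Benjamini-Hochberg adjusted p under 0.05 in edgeR's quasi-likelihood test over all 14732 genes tested. In shSRPK1 against NT 1 of the 59 subunits was called (1.69%, higher), where 9.18% of all tested genes were called, 5.43% higher and 3.75% lower. In oeSRPK1 against NT 3 were called (5.08%, all lower), where 20.6% of all tested genes were called, 11.2% higher and 9.45% lower. In oeSRPK1 against shSRPK1 6 were called (10.2%, 3 higher and 3 lower), where 22.8% of all tested genes were called, 11.5% higher and 11.3% lower. The 10 calls fell on 8 genes: SNRPA, SNRPA1, SF3B4, SNRNP40, USP39, SART1, CWC22 and SLU7. At an unadjusted p under 0.05 in edgeR the counts were 10, 8 and 21 subunits, or 16.9%, 13.6% and 35.6%, against 28.8%, 35.7% and 38.0% of all tested genes. Both libraries of 1 group lay above both of the other for 12 subunits and below for 13 in shSRPK1 against NT, where 28.8% and 28.7% of all tested genes did. The counts were 19 above and 19 below in oeSRPK1 against NT (35.9% and 34.6% of all tested genes), and 16 and 16 in oeSRPK1 against shSRPK1 (31.8% and 30.5%).

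**Figure D1:**
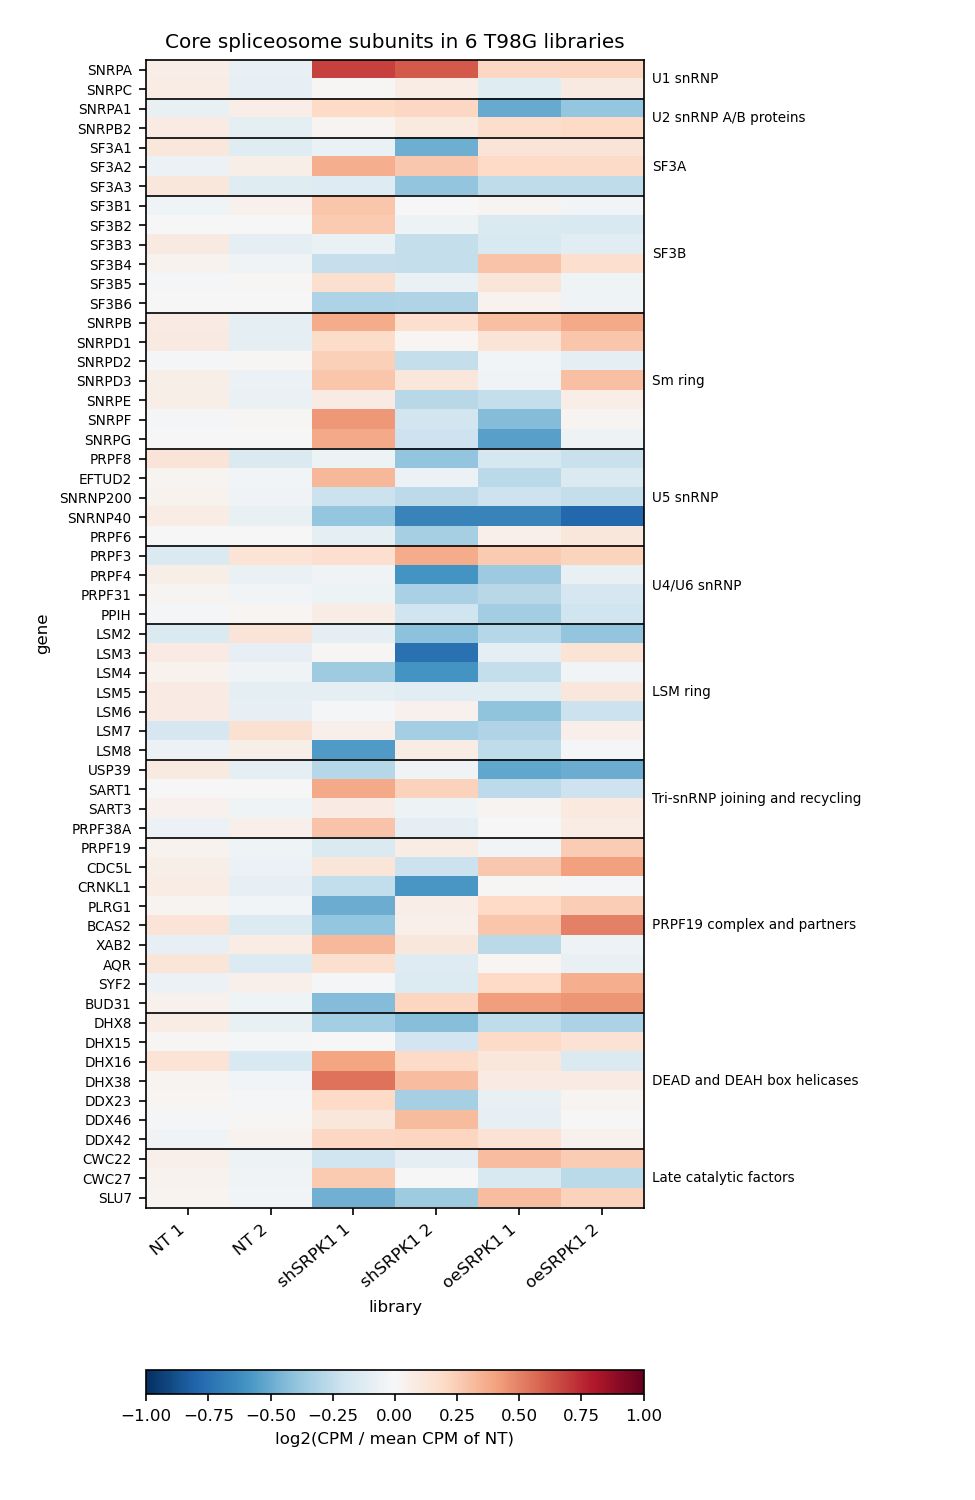
Each row is 1 of the 59 subunit genes and each column 1 of the 6 libraries, and the colour is log2 of CPM over the mean of the NT libraries, from -1 (blue) to 1 (red). Most rows stay pale, SNRPA is red in both shSRPK1 libraries, SNRNP40 is blue in all 4 transfected libraries, and rows such as LSM3, BUD31 and LSM8 differ between shSRPK1 1 and shSRPK1 2.

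The differences were small in size as well as few. The median log2 fold change of the subunits was -0.04, 0.00 and 0.00 in the 3 comparisons, taken in that order, with 27, 28 and 29 of the 59 above 0, and that of all tested genes was 0.01, 0.00 and 0.00. The median size of the difference, without its sign, was 0.18, 0.19 and 0.23 on the log2 scale, against 0.29, 0.34 and 0.37 over all tested genes. No subunit differed by more than 2-fold (0 of 59 in each comparison), while 1154, 1908 and 1932 of all tested genes did. The 95% interval lay within 1.5-fold in both directions for 42, 43 and 35 subunits, and within 2-fold for 59, 58 and 59, the exception being SNRNP40 in oeSRPK1 against NT. The subunits were also more abundant and more tightly measured than the genes they are set beside, with a median level of 64.5 against 21.9 CPM. They had a median standard error of the log2 fold change of 0.135 to 0.137 in the 3 comparisons against 0.182 to 0.187.

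**Figure D2:**
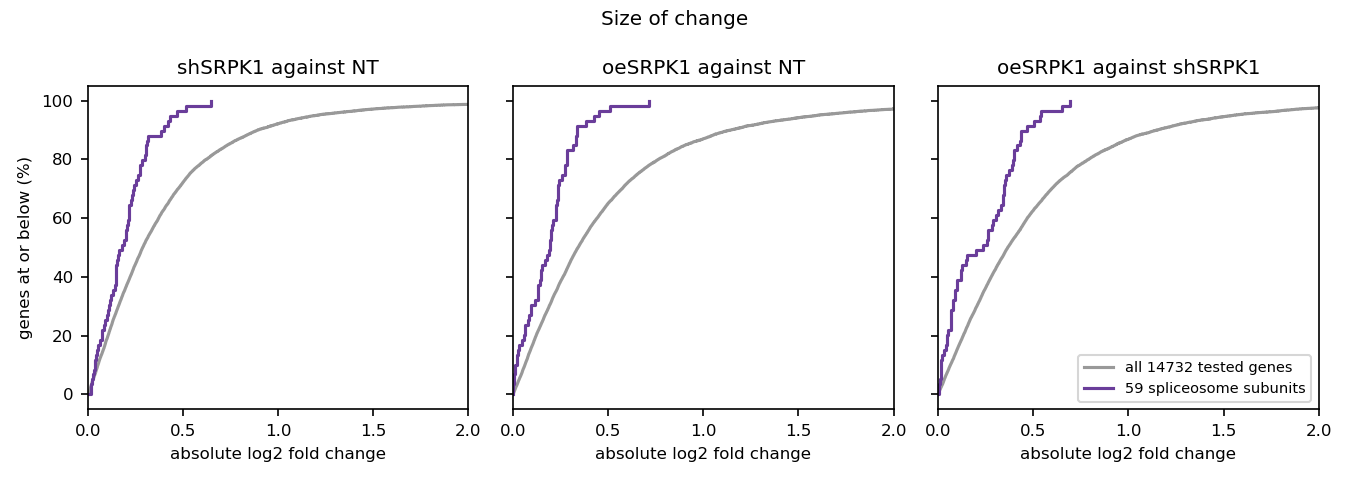
The curves give the percentage of genes (vertical axis) whose log2 fold change, without its sign, is at or below the value on the horizontal axis, for the 59 subunits and for all 14732 tested genes, in each of the 3 comparisons. The subunits' curve reaches 100% before 1 in every panel, while 1154, 1908 and 1932 of all tested genes lie beyond 1.

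These counts rest on a spread shared by all 6 libraries, and they moved with single libraries. In edgeR without shSRPK1 1 the 3 comparisons gave 17, 17 and 16 called subunits, beside 25.9%, 41.8% and 36.1% of all tested genes. Without shSRPK1 2 they gave 16, 16 and 23, beside 29%, 40.5% and 38.8%. Without NT 1 they gave 0, 0 and 2 (0.182%, 2.38% and 9.89% of all tested genes), and without NT 2 also 0, 0 and 2 (0.362%, 3.17% and 9.88%). Without oeSRPK1 1 they gave 0 in each (1.59%, 1.94% and 0.952%), and without oeSRPK1 2 they gave 0, 0 and 1 (1.68%, 6.36% and 6.12%). At an unadjusted p under 0.05, edgeR without NT 1, NT 2, oeSRPK1 1 or oeSRPK1 2 left 3, 7, 9 and 8 subunits in shSRPK1 against NT, beside 12.4%, 17.6%, 23.8% and 23.5% of all tested genes. In oeSRPK1 against NT the same omissions left 3 each time, beside 20.7%, 22.3%, 20.2% and 26.8%, and in oeSRPK1 against shSRPK1 they left 10, 10, 6 and 9, beside 30.3%, 30.9%, 21.4% and 28.8%. With only the libraries compared in edgeR, the called subunits were 0, 16 and 2, beside 0.903%, 44.2% and 10.4% of all tested genes, and 7 subunits had an unadjusted p under 0.05 in the comparison with 0. That fit called BUD31 (adjusted p = 0.00165), SNRPB (0.00972), CDC5L (0.0164), SLU7 (0.0248), BCAS2 (0.0258) and CWC22 (0.0406) higher in oeSRPK1 than NT. It called DHX8 (0.0157), SF3A3 (0.0257), SNRNP200 (0.0282), SART1 (0.0310) and EFTUD2 (0.0327) lower. None of these was called in oeSRPK1 against NT with all 6 libraries. DESeq2 on all 6 libraries called 1, 3 and 5, beside 11.02%, 18.2% and 18.8% of all tested genes. With no filter on low counts edgeR called 5, 3 and 13 of the 59 (8.47%, 5.08% and 22.03%), beside 9.17%, 14.3% and 15.6% of the 28529 genes then tested, so that in the third comparison the share among the subunits was the higher one. Without shSRPK1 1 their share was also the higher one in shSRPK1 against NT. Without shSRPK1 2 it was about level with that of all tested genes in oeSRPK1 against shSRPK1. In the other comparisons of these omissions it was the lower one.

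**Figure D3:**
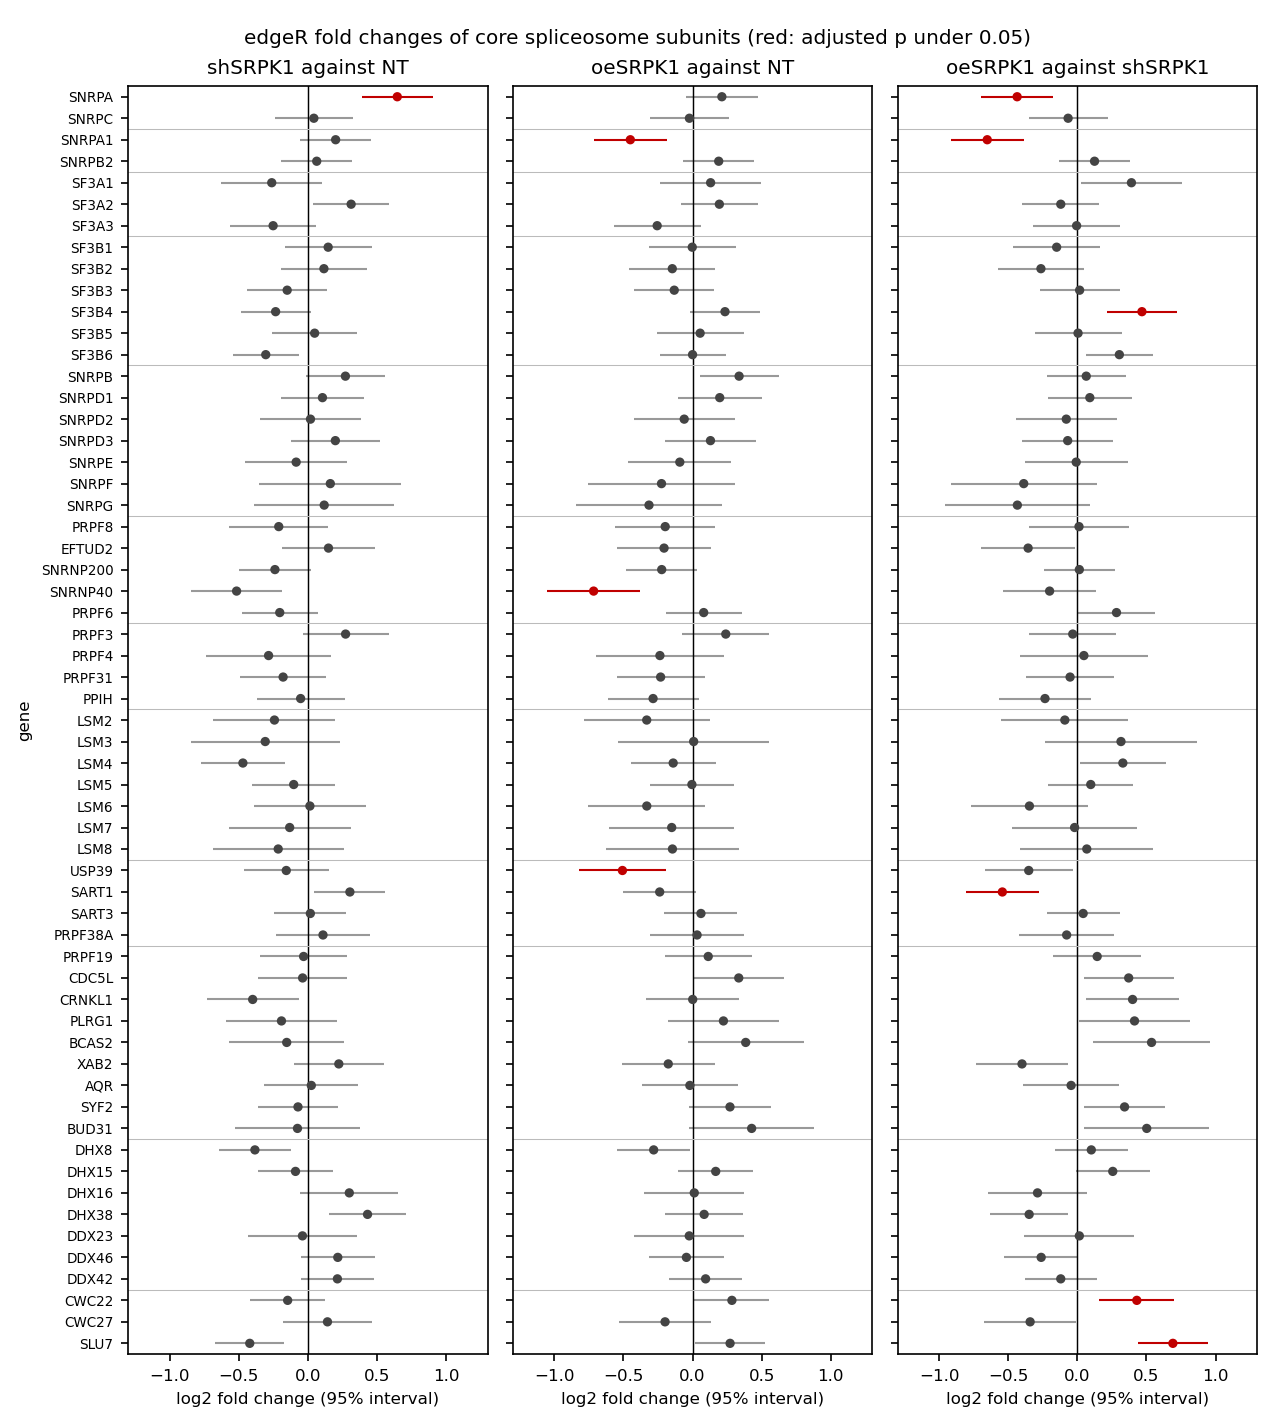
Points are edgeR log2 fold changes of the 59 subunits with their 95% intervals (horizontal axis), 1 panel per comparison, with lines between the groups of subunits, and red marks an adjusted p under 0.05. The red points are SNRPA in the first panel, SNRPA1, SNRNP40 and USP39 in the second, and SNRPA, SNRPA1, SF3B4, SART1, CWC22 and SLU7 in the third.

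The proteins that recognise the ends of the intron came first in the order of assembly, and 1 of the 2 U1 genes rose in shSRPK1. SNRPA, the A protein of U1 snRNP, which binds a stem loop of U1 RNA (ENSG00000077312.7, GRCh38 chromosome 19, 40750637 to 40765389, plus strand), stood at 54.0 and 49.0 CPM in NT cells, 82.5 and 78.6 after shSRPK1 and 59.5 and 59.7 after oeSRPK1, from 1093 and 822 reads in shSRPK1 against 556 and 694 in NT. Both shSRPK1 libraries lay above the other 4, and both oeSRPK1 libraries lay above NT. It rose in shSRPK1 to 1.57 times (95% interval 1.31 to 1.87) the NT level, log2 fold change 0.65 ± 0.11 (SE, edgeR adjusted p = 0.0175), and was lower in oeSRPK1 than in shSRPK1, log2 fold change -0.44 ± 0.11 (SE, edgeR adjusted p = 0.0295). In oeSRPK1 against NT it did not pass (log2 fold change 0.21 ± 0.11 SE, edgeR adjusted p = 0.219). Exons of C19orf54 on the other strand cover 3.77% of its exon bases. The first call was lost in edgeR without NT 1, NT 2, oeSRPK1 1 or oeSRPK1 2 (adjusted p = 0.196, 0.175, 0.0692 and 0.0690), and so was the second (adjusted p = 0.0781, 0.0764, 0.181 and 0.135), with the direction the same each time. With only the libraries compared both were lost as well (0.0713 and 0.0746). SNRPC, the C protein of U1 snRNP, which steadies the pairing of U1 RNA with the start of the intron, had 72.8 and 65.5 CPM in NT cells, 69.8 and 72.7 after shSRPK1 and 63.5 and 73.4 after oeSRPK1. Its groups overlapped, and no comparison passed in edgeR, with fold intervals against NT of 0.848 to 1.25 in shSRPK1 and 0.808 to 1.20 in oeSRPK1. The annotation holds 18 pseudogenes named after SNRPC, so reads shared with such copies may be lost or split.

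The A and B proteins of U2 snRNP parted from each other in oeSRPK1. SNRPA1, the A′ protein of U2 snRNP (ENSG00000131876.15, GRCh38 chromosome 15, 101281510 to 101295282, minus strand), had 66.9 and 73.9 CPM in NT cells, 80.7 and 81.2 after shSRPK1 and 49.8 and 53.8 after oeSRPK1. Both oeSRPK1 libraries were the lowest of the 6 and both shSRPK1 libraries the highest, with no overlap between any 2 groups. It fell in oeSRPK1 to 0.732 times (95% interval 0.609 to 0.880) the NT level, log2 fold change -0.45 ± 0.11 (SE, edgeR adjusted p = 0.0296), and to 0.637 times (95% interval 0.530 to 0.765) that of shSRPK1, log2 fold change -0.65 ± 0.11 (SE, edgeR adjusted p = 0.00836). The first of these calls did not hold in edgeR without NT 1, NT 2, oeSRPK1 1 or oeSRPK1 2 (adjusted p = 0.135, 0.223, 0.220 and 0.103), and the other did not without oeSRPK1 1 (0.119) or oeSRPK1 2 (0.0532). SNRPB2, the B″ protein of U2 snRNP, which sits beside it on U2 RNA, had 91.0 and 81.0 CPM in NT cells, 87.8 and 92.0 after shSRPK1 and 97.3 and 98.7 after oeSRPK1. The oeSRPK1 libraries were the highest for this gene, and no comparison passed in edgeR (oeSRPK1 against NT log2 fold change 0.19 ± 0.11 SE, edgeR adjusted p = 0.263). The difference between the pair in their response was not tested.

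Within the SF3A and SF3B complexes, which clamp U2 snRNP onto the branch site, 1 of 9 genes was called, in 1 comparison. SF3B4, a subunit that touches the pre-mRNA just before the branch site (ENSG00000143368.9, GRCh38 chromosome 1, 149923317 to 149928344, minus strand), had 65.9 and 62.7 CPM in NT cells, 54.9 and 54.5 after shSRPK1 and 78.5 and 72.4 after oeSRPK1. The 3 groups did not overlap, with shSRPK1 lowest and oeSRPK1 highest. Set against shSRPK1 it was higher in oeSRPK1, at 1.38 times (95% interval 1.16 to 1.65) its level, log2 fold change 0.47 ± 0.11 (SE, edgeR adjusted p = 0.0222), and neither group passed against NT in edgeR (adjusted p = 0.203 and 0.168). Leaving out NT 1, NT 2, oeSRPK1 1 or oeSRPK1 2 ended this call in edgeR (adjusted p = 0.0729, 0.0717, 0.228 and 0.0788), as did a fit of only the libraries compared (0.0685). SF3B1, the large subunit that cradles the branch site and is often mutated in blood cancers, was the most counted of the 59 genes, at 456 and 482 CPM in NT cells, 568 and 471 after shSRPK1 and 477 and 459.6 after oeSRPK1. Its groups overlapped in every comparison, and the fold interval against NT was 0.891 to 1.38 in shSRPK1 and 0.803 to 1.24 in oeSRPK1.

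The other SF3B subunits and the SF3A trimer stayed within a narrow range. SF3B6, the small subunit next to the branch adenosine, was lower in both shSRPK1 libraries (66.6 and 67.0 CPM) than in the other 4 (80.4 to 84.4 CPM), and did not pass (log2 fold change -0.30 ± 0.10 SE, edgeR adjusted p = 0.102). It did so in edgeR without shSRPK1 1 (0.0498) or shSRPK1 2 (0.0377). SF3A2, which tethers SF3A to U2 snRNP, had 30.2 and 32.8 CPM in NT cells, 40.4 and 37.9 after shSRPK1 and 36.1 and 35.9 after oeSRPK1. Both shSRPK1 libraries were the highest and both NT libraries the lowest, without passing (log2 fold change 0.31 ± 0.12 SE, edgeR adjusted p = 0.130), and 12.7% of its exon bases lie under exons of PLEKHJ1 on the other strand. SF3A3 had 104 and 87.9 CPM in NT cells, 87.7 and 73.0 after shSRPK1 and 80.1 and 80.1 after oeSRPK1, with NT 1 above the rest and no call in edgeR (shSRPK1 against NT -0.25 ± 0.13, oeSRPK1 against NT -0.26 ± 0.14). Of these 9 genes SF3A1 differed most between libraries of 1 group, at 75.1 and 56.0 CPM in shSRPK1. SF3B2, SF3B3 and SF3B5 had log2 fold changes between -0.26 and 0.12 in the 3 comparisons. The differences of SF3A3 from NT passed in edgeR when shSRPK1 1 was left out, at 0.0186 for shSRPK1 and 0.0199 for oeSRPK1, and the latter also without shSRPK1 2 (0.0188). When shSRPK1 2 was left out in edgeR, SF3A2 passed in shSRPK1 against NT (0.0373) and SF3B1 between the transfected groups (0.0227).

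The Sm ring, 7 proteins that close around the snRNAs of U1, U2, U4 and U5, had 0 called genes in each comparison in edgeR. Its summed level was 504 and 476 CPM in NT cells, 593 and 469 after shSRPK1 and 480.0 and 542 after oeSRPK1, so that the 2 shSRPK1 libraries lay on either side of NT. SNRPB had 107 and 95.2 CPM in NT cells, 131 and 114 after shSRPK1 and 125 and 132 after oeSRPK1. All 4 transfected libraries were above NT, and neither group passed in edgeR (shSRPK1 0.27 ± 0.12, adjusted p = 0.189, oeSRPK1 0.34 ± 0.12, adjusted p = 0.0915). In edgeR without shSRPK1 1 or shSRPK1 2 the latter difference passed (adjusted p = 0.0115 and 0.0149), and the former passed without shSRPK1 2 (0.0143). Exons of another gene on the same strand cover 20.03% of its exon bases. SNRPD2 had 121 and 123 CPM in NT cells, 144 and 103 after shSRPK1 and 119.7 and 114 after oeSRPK1, where only shSRPK1 1 and shSRPK1 2 stand away from the rest, in opposite directions. Its difference between oeSRPK1 and shSRPK1 passed in edgeR when shSRPK1 2 was left out (0.0157) and had the other sign without shSRPK1 1. SNRPF and SNRPG, which enter the ring as a unit with SNRPE, varied alike over libraries. SNRPG was 43.3 and 43.6 CPM in NT cells, 56.4 and 37.7 after shSRPK1 and 29.7 and 41.9 after oeSRPK1, and SNRPF was 34.5 and 35.2 CPM in NT cells, 47.0 and 30.7 after shSRPK1 and 25.8 and 35.4 after oeSRPK1. Both were highest in shSRPK1 1 and lowest in oeSRPK1 1, and 20 pseudogenes carry the name of SNRPG, 4 that of SNRPF and 9 that of SNRPE.

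Among the U5 proteins, which hold the exons at the catalytic centre, SNRNP40 was the 1 gene called. SNRNP40, a ring-shaped WD repeat protein (ENSG00000060688.11, GRCh38 chromosome 1, 31259568 to 31296782, minus strand), had 45 and 40.7 CPM in NT cells, 32.9 and 27.0 after shSRPK1 and 26.9 and 24.8 after oeSRPK1, from 599 and 96 reads in oeSRPK1 against 464 and 576 in NT. All 4 transfected libraries were below both NT libraries, and both oeSRPK1 libraries were below shSRPK1. It fell in oeSRPK1 to 0.609 times (95% interval 0.482 to 0.769) the NT level, log2 fold change -0.72 ± 0.15 (SE, edgeR adjusted p = 0.0139), the lowest fold of the 59 in that comparison. In shSRPK1 it missed the threshold at 0.700 times (95% interval 0.558 to 0.877) the NT level, log2 fold change -0.52 ± 0.14 (SE, edgeR adjusted p = 0.0589). It passed there in edgeR without shSRPK1 1 (0.00141) or shSRPK1 2 (0.0360) and with no filter on low counts (0.0194). The fall in oeSRPK1 was lost in edgeR without NT 1, NT 2, oeSRPK1 1 or oeSRPK1 2 (adjusted p = 0.133, 0.0784, 0.123 and 0.0904), and the small gap between oeSRPK1 and shSRPK1 (-0.20 ± 0.15) passed only without shSRPK1 2 (0.0393).

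SNRNP200, the helicase that unwinds U4 from U6, had 301 and 286 CPM in NT cells, 252 and 245 after shSRPK1 and 254 and 248 after oeSRPK1. Both transfected groups lay below NT without overlap, by log2 fold change -0.24 ± 0.11 (SE, edgeR adjusted p = 0.203) in shSRPK1 and -0.22 ± 0.11 (edgeR adjusted p = 0.195) in oeSRPK1. The second difference passed in edgeR without shSRPK1 1 (0.0252) or shSRPK1 2 (0.0231). PRPF8, the scaffold of the active site, had 309.8 and 256 CPM in NT cells, 274 and 215 after shSRPK1 and 251 and 243 after oeSRPK1, and its libraries spread as widely within NT as between groups. EFTUD2, the GTPase of U5, and PRPF6, which bridges U5 and U4/U6, had log2 fold changes against NT of 0.15 ± 0.14 and -0.20 ± 0.12 in shSRPK1 and -0.21 ± 0.15 and 0.08 ± 0.12 in oeSRPK1, and neither passed in edgeR. EFTUD2 passed in edgeR as higher in shSRPK1 without shSRPK1 2 (0.0208) and as lower in oeSRPK1 without shSRPK1 1 (0.0303) or shSRPK1 2 (0.0306), and PRPF6 as lower in shSRPK1 without shSRPK1 1 (0.0265). Summed over the 5 genes, U5 stood at 0.883 and 0.875 times the NT mean in shSRPK1 and oeSRPK1.

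The U4/U6 proteins and the LSM ring, which binds the tail of U6 RNA, held 0 called genes in edgeR in each comparison. PRPF3, a U4/U6 protein, had 54.7 and 66.4 CPM in NT cells, 68.1 and 78.4 after shSRPK1 and 72.4 and 70.6 after oeSRPK1, lowest in NT 1 and highest in shSRPK1 2. It passed in no comparison in edgeR with all libraries (shSRPK1 against NT 0.27 ± 0.13, adjusted p = 0.223, and 0.0300 without shSRPK1 1). Its partners PRPF4, PRPF31 and PPIH had negative log2 fold changes in both transfected groups against NT, from -0.29 to -0.05, none of which passed. Exons on the other strand cover 38.9% of the exon bases of PPIH and 32.0% of those of PRPF31, and the strand setting is not stated. LSM4 had 78.1 and 74.5 CPM in NT cells, 59.7 and 50.3 after shSRPK1 and 64.6 and 74.7 after oeSRPK1. Both shSRPK1 libraries were the lowest and oeSRPK1 overlapped NT, with log2 fold change -0.47 ± 0.13 (SE, edgeR adjusted p = 0.0633) in shSRPK1 against NT. That difference passed in edgeR without shSRPK1 1 (0.00116), without shSRPK1 2 (0.0296) and with no filter (0.0214), and the one between oeSRPK1 and shSRPK1 (0.33 ± 0.13) passed without shSRPK1 1 (0.0137). Of the 7 LSM genes 1 had a log2 fold change above 0 in shSRPK1 against NT and 1 in oeSRPK1 against NT, LSM6 at 0.02 ± 0.18 and LSM3 at 0.01 ± 0.24. Both had the opposite sign with upper-quartile scaling, and LSM3 also with DESeq2 size factors. The summed LSM level was 259.5 and 259 CPM in NT cells, 222 and 212 after shSRPK1 and 223 and 261 after oeSRPK1, so that both shSRPK1 libraries lay below both NT libraries and oeSRPK1 2 was level with NT.

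**Figure D4:**
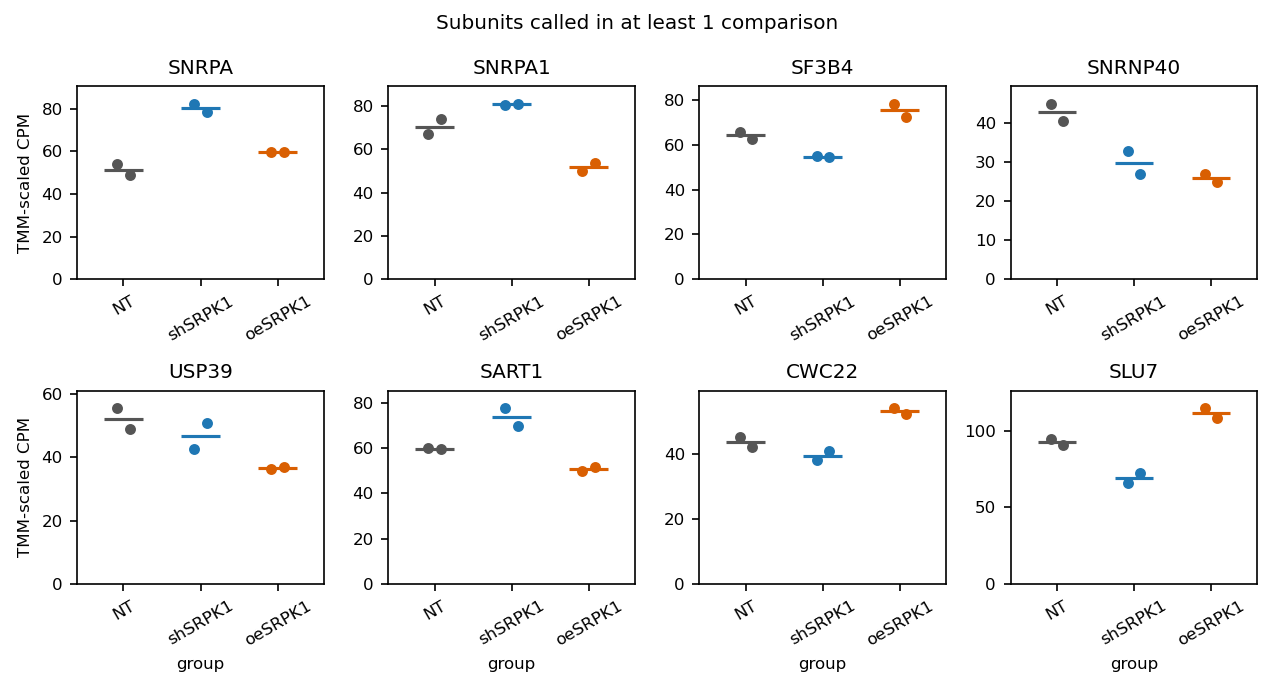
Each panel shows 1 of the 8 called genes, with TMM-scaled CPM on the vertical axis starting at 0, 1 point per library and a bar at the mean of each group. SNRPA and SART1 peak in shSRPK1, SLU7, CWC22 and SF3B4 peak in oeSRPK1, and SNRNP40 falls from about 43 CPM in NT to about 26 in oeSRPK1.

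Of the 4 factors that join or recycle the tri-snRNP, USP39 and SART1 were called, both with low levels in oeSRPK1. USP39, a tri-snRNP protein related to ubiquitin proteases (ENSG00000168883.18, GRCh38 chromosome 2, 85602856 to 85649282, plus strand), had 55.5 and 48.9 CPM in NT cells, 42.7 and 51.0 after shSRPK1 and 36.5 and 37.0 after oeSRPK1. Both oeSRPK1 libraries were the lowest, and shSRPK1 overlapped NT. It fell in oeSRPK1 to 0.704 times (95% interval 0.565 to 0.877) the NT level, log2 fold change -0.51 ± 0.14 (SE, edgeR adjusted p = 0.0363), and exons on the other strand cover 7.14% of its exon bases. SART1, which ties U5 to U4/U6 in the tri-snRNP (ENSG00000175467.13, GRCh38 chromosome 11, 65961689 to 65979828, plus strand), had 59.8 and 59.5 CPM in NT cells, 77.4 and 69.8 after shSRPK1 and 49.7 and 51.7 after oeSRPK1. Both shSRPK1 libraries were above NT and both oeSRPK1 libraries below it. Set against shSRPK1 it was lower in oeSRPK1, at 0.687 times (95% interval 0.572 to 0.824) its level, log2 fold change -0.54 ± 0.11 (SE, edgeR adjusted p = 0.0151), and passed against NT in neither group (edgeR adjusted p = 0.120 and 0.177).

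The USP39 call was lost in edgeR without NT 1, NT 2, oeSRPK1 1 or oeSRPK1 2 (adjusted p = 0.255, 0.122, 0.219 and 0.146), and USP39 passed in oeSRPK1 against shSRPK1 without shSRPK1 1 (0.00403). For SART1 the same 4 omissions gave edgeR adjusted p = 0.0527, 0.0528, 0.148 and 0.0807, and only the libraries compared gave 0.0529. Its difference from NT passed in oeSRPK1 without shSRPK1 1 (0.0273) or shSRPK1 2 (0.0247) and in shSRPK1 without shSRPK1 2 (0.0132). SART3, which helps U6 pair again with U4, varied little, at 63.6 and 59.7 CPM in NT cells, 65.3 and 59.5 after shSRPK1 and 62.9 and 65.9 after oeSRPK1. Its groups overlapped in all comparisons, with fold intervals of 0.845 to 1.21 and 0.869 to 1.25 against NT. PRPF38A, a protein of the precatalytic complex, stood out in shSRPK1 1 alone, at 69.2 CPM against 53.0 to 59.7 in the other 5.

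The PRPF19 complex and its partners, which enter as the spliceosome is activated, were higher as a sum in oeSRPK1, though 0 of the 9 genes were called in edgeR in any comparison. The sum was 557 and 524 CPM in NT cells, 491 and 534 after shSRPK1 and 596 and 648 after oeSRPK1. Both oeSRPK1 libraries were above the other 4, and the mean was 1.15 times that of NT and 1.21 times that of shSRPK1. Of the 9 genes 7 had a log2 fold change above 0 in oeSRPK1 against NT (median 0.22) and 7 in oeSRPK1 against shSRPK1 (median 0.37), where 7362 and 7338 of all 14732 tested genes did. XAB2, at -0.18 ± 0.15 and -0.40 ± 0.14, and AQR, at -0.02 ± 0.15 and -0.04 ± 0.15, were the exceptions in both. The AQR values changed sign with single omissions, and XAB2 passed in edgeR against shSRPK1 without shSRPK1 2 (0.00272) and with no filter (0.0259). The difference of BCAS2 between oeSRPK1 and shSRPK1 passed in edgeR when shSRPK1 2 was left out (0.000767), as did that of BUD31 (1.19e-05).

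BUD31, a small zinc-binding protein near the active site, had 72.5 and 68.1 CPM in NT cells, 52.0 and 81.7 after shSRPK1 and 93.8 and 95.4 after oeSRPK1. Both oeSRPK1 libraries were the highest and the shSRPK1 libraries lay on either side of NT. The log2 fold change in oeSRPK1 against NT was the highest of the 59, 0.43 ± 0.20 (SE, edgeR adjusted p = 0.160). It passed in edgeR without shSRPK1 1 (0.00132) or shSRPK1 2 (0.00174), and the shSRPK1 difference from NT passed as a fall without shSRPK1 2 (0.00651) but had the opposite sign without shSRPK1 1. Exons of PDAP1 and PTCD1 on the other strand cover 46.7% of its exon bases, and without a stated strand setting their reads cannot be separated from its own. BCAS2, which belongs to the PRPF19 core, had 36.6 and 30.5 CPM in NT cells, 25.6 and 34.8 after shSRPK1 and 40.7 and 47.6 after oeSRPK1. The oeSRPK1 libraries were again the highest, at log2 fold change 0.38 ± 0.18 (SE, edgeR adjusted p = 0.171) against NT and 0.54 ± 0.18 (edgeR adjusted p = 0.0679) against shSRPK1. Its difference from NT passed in edgeR without shSRPK1 1 (0.0269) or shSRPK1 2 (0.0306). PRPF19, the ubiquitin ligase that names the complex, had 122 and 115 CPM in NT cells, 107 and 125 after shSRPK1 and 116 and 141 after oeSRPK1, and only oeSRPK1 2 stood above the range of the rest.

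CDC5L, a DNA- and RNA-binding partner of PRPF19, and SYF2 had no overlap between oeSRPK1 and the other groups. CDC5L stood at 71.6 and 65.7 CPM in NT cells, 74.5 and 59.1 after shSRPK1 and 82.6 and 91.0 after oeSRPK1, and SYF2 at 34.9 and 37.6 CPM in NT cells, 35.9 and 33.0 after shSRPK1 and 41.5 and 46.5 after oeSRPK1. Their differences from NT in oeSRPK1 were 0.33 ± 0.14 and 0.27 ± 0.13 (edgeR adjusted p = 0.131 and 0.170). Those from shSRPK1 were 0.37 ± 0.14 and 0.34 ± 0.13 (edgeR adjusted p = 0.0932 and 0.0891). CDC5L passed against NT in edgeR without shSRPK1 1 (0.0170) or shSRPK1 2 (0.0188). Against shSRPK1 both passed without shSRPK1 1 (0.00242 and 0.0438). CRNKL1 was lowest in the shSRPK1 libraries, at 38.1 and 30.1 CPM against 42.6 to 47.6 in the other 4, without a call (log2 fold change -0.40 ± 0.14 SE, edgeR adjusted p = 0.117) except in edgeR without shSRPK1 1 (0.00306).

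The helicases, which use ATP to remodel the spliceosome between its steps, had 0 called genes in edgeR in each comparison. DHX38, which acts between the catalytic steps, had 57.0 and 54.9 CPM in NT cells, 81.6 and 69.2 after shSRPK1 and 59.4 and 59.2 after oeSRPK1. Both shSRPK1 libraries were the highest, and the other 4 lay together. The differences were log2 fold change 0.43 ± 0.12 (SE, edgeR adjusted p = 0.0621) in shSRPK1 against NT and -0.35 ± 0.12 (edgeR adjusted p = 0.0749) in oeSRPK1 against shSRPK1, and 12.2% of its exon bases lie under exons on the other strand. The former passed in edgeR without shSRPK1 1 (0.0499), without shSRPK1 2 (0.000748) and with no filter (0.0329), and the latter without shSRPK1 2 (0.00129) and with no filter (0.0311). DHX8, which releases the spliced mRNA, lay the other way, at 83.2 and 75.3 CPM in NT cells, 62.5 and 59 after shSRPK1 and 66.5 and 63.6 after oeSRPK1. All 4 transfected libraries were below NT without passing in edgeR (shSRPK1 -0.38 ± 0.11, adjusted p = 0.0710, oeSRPK1 -0.28 ± 0.11, adjusted p = 0.118). Both differences passed in edgeR without shSRPK1 1 (0.0111 and 0.0130) or shSRPK1 2 (0.0303 and 0.0118).

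DDX42, a helicase that associates with SF3B, was the most counted of the 7, at 250.4 and 262 CPM in NT cells, 296 and 298 after shSRPK1 and 282 and 264 after oeSRPK1. Both shSRPK1 libraries were above the rest by a small margin, with log2 fold change 0.21 ± 0.11 (SE, edgeR adjusted p = 0.252). DHX15, which takes spent spliceosomes apart, had 162 and 159.8 CPM in NT cells, 162 and 141 after shSRPK1 and 184 and 178 after oeSRPK1, with oeSRPK1 highest and log2 fold change 0.17 ± 0.12 (SE, edgeR adjusted p = 0.341) against NT. DDX46, which helps U2 snRNP join, and DHX16, which acts at activation, were higher in shSRPK1 than in NT without overlap or call, at 0.22 ± 0.12 and 0.30 ± 0.15. DDX46 passed in edgeR without shSRPK1 1 (0.0272) and DHX16 without shSRPK1 2 (0.0357). DDX23, which frees the start of the intron from U1, had a log2 fold change of -0.04 ± 0.17 in shSRPK1 and -0.02 ± 0.17 in oeSRPK1 against NT. The first passed in edgeR as a fall without shSRPK1 1 (0.0400) and had the opposite sign without shSRPK1 2.

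The late catalytic factors held the largest difference between the transfected groups. SLU7, which serves the choice of the end of the intron at the second step (ENSG00000164609.8, GRCh38 chromosome 5, 160401641 to 160421711, minus strand), had 94.2 and 90.7 CPM in NT cells, 66.1 and 72.1 after shSRPK1 and 114 and 108 after oeSRPK1. The groups did not overlap, with both shSRPK1 libraries the lowest and both oeSRPK1 libraries the highest. Set against shSRPK1 it was higher in oeSRPK1, at 1.61 times (95% interval 1.36 to 1.92) its level, log2 fold change 0.69 ± 0.11 (SE, edgeR adjusted p = 0.00599), the largest difference of the 59 in that comparison. In shSRPK1 against NT it just missed the threshold (log2 fold change -0.42 ± 0.11 SE, edgeR adjusted p = 0.0514) and passed in edgeR with upper-quartile scaling (0.0434), no filter (0.0473), a stricter filter (0.0466), and without shSRPK1 1 (0.0198) or shSRPK1 2 (0.00229). In oeSRPK1 against NT it did not pass (log2 fold change 0.27 ± 0.11 SE, edgeR adjusted p = 0.116), though it did in edgeR without shSRPK1 1 (0.0304) or shSRPK1 2 (0.0370). Its call between the transfected groups was lost in edgeR without oeSRPK1 1 (adjusted p = 0.110).

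CWC22, which brings the exon junction complex protein EIF4A3 to the spliceosome (ENSG00000163510.12, GRCh38 chromosome 2, 179944876 to 180007113, minus strand), followed the same order at 45.3 and 42.1 CPM in NT cells, 38.0 and 41.0 after shSRPK1 and 54.0 and 52.2 after oeSRPK1. The groups did not overlap here either. Set against shSRPK1 it was higher in oeSRPK1, at 1.35 times (95% interval 1.12 to 1.63) its level, log2 fold change 0.43 ± 0.12 (SE, edgeR adjusted p = 0.0354). This call was lost in DESeq2 (0.0755), in edgeR with no filter (0.101) and in edgeR without NT 1, NT 2, oeSRPK1 1 or oeSRPK1 2 (adjusted p = 0.0970, 0.0950, 0.264 and 0.120) or with only the libraries compared (0.0882). The difference from NT in oeSRPK1 passed without shSRPK1 1 (0.0481). CWC27, a relative of the peptidyl-prolyl isomerases, lay the other way, at 25.5 and 24.3 CPM in NT cells, 29.9 and 25 after shSRPK1 and 22.4 and 20.7 after oeSRPK1, with oeSRPK1 lowest and no call in edgeR (oeSRPK1 against shSRPK1 -0.34 ± 0.14, adjusted p = 0.125, and 0.00825 without shSRPK1 2). Summed over the 3 genes, the late factors stood at 0.845 times the NT mean in shSRPK1 and 1.16 times in oeSRPK1.

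Among the 12 groups of subunits, summed levels relative to NT ran from 0.835 (LSM ring) to 1.26 (U1 snRNP) in shSRPK1 and from 0.875 (U5 snRNP) to 1.16 (late catalytic factors) in oeSRPK1. With TMM scaling both shSRPK1 libraries lay above both NT libraries for U1 snRNP, U2 A and B proteins and the helicases, and below them for the LSM ring and the late factors. Without scaling the U2 proteins and the helicases overlapped NT, while the other 3 kept their place under each of the 4 scalings. With TMM scaling both oeSRPK1 libraries lay above both NT libraries for the PRPF19 complex, the helicases and the late factors, and below them for U2 A and B proteins, SF3B, U5 snRNP and the tri-snRNP factors. The helicases overlapped NT with DESeq2 size factors or upper-quartile scaling and lay below it without scaling, while the other 6 kept their place under each of the 4. Some groups that overlapped NT with TMM lay below it under other scalings. In oeSRPK1 the LSM ring did so under the other 3, and U4/U6 snRNP with upper-quartile scaling and without scaling. In shSRPK1 U5 snRNP and the PRPF19 complex did so with upper-quartile scaling and without scaling. SF3A and U4/U6 snRNP of shSRPK1 did so only without scaling. With 2 libraries against 2 an exact permutation test cannot reach the threshold of 0.05, and no test was run on these sums. Without TMM scaling every log2 fold change shifts by -0.10 in shSRPK1 against NT, -0.08 in oeSRPK1 against NT and 0.03 in oeSRPK1 against shSRPK1. In shSRPK1 this takes the tri-snRNP factors from 1.06 to 0.988 times NT, SF3B from 1.02 to 0.953 and U4/U6 snRNP from 1.004 to 0.936. In oeSRPK1 it takes the helicases from 1.03 to 0.976 times NT and the Sm ring from 1.04 to 0.990. With upper-quartile scaling U4/U6 snRNP in shSRPK1 (0.987) and the helicases in oeSRPK1 (0.995) also fell under 1.

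**Figure D5:**
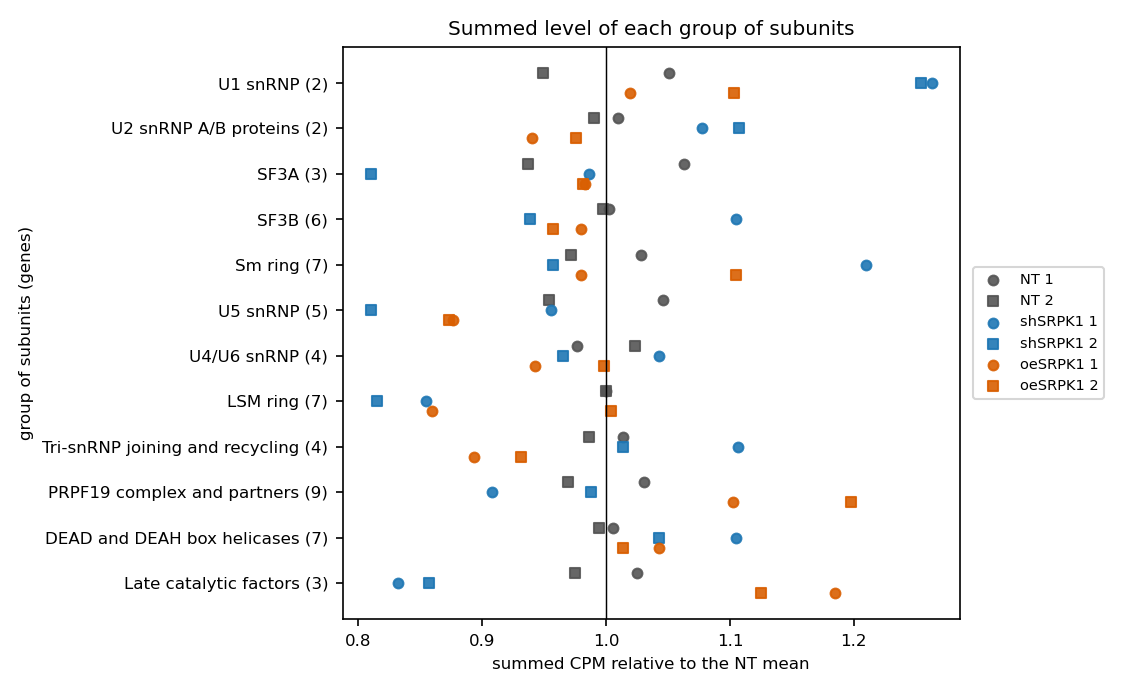
Summed TMM-scaled CPM of each of the 12 groups of subunits, with the number of genes in parentheses, relative to the mean of the NT libraries (horizontal axis), 1 point per library, circles for replicate 1 and squares for replicate 2. U1 snRNP lies near 1.26 in both shSRPK1 libraries, while for the Sm ring, SF3A and SF3B the shSRPK1 libraries lie well apart.

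Levels of the genes can be compared only per length. By that measure, which depends on the transcript chosen, the subunits of 1 complex were not at 1 level. On the scale of CPM per kilobase of the principal transcript (the longest of those ranked best) in NT, the Sm ring ran from 9.01 for SNRPD1 to 136 for SNRPD2, the highest of the 59. The transcript used for SNRPD1 has 4909 bases, against 625 to 1763 for the other Sm genes. In CPM, not divided by length, SNRPD1 (44.2 in NT) was above SNRPF (34.8) and SNRPG (43.4). SF3B ran from 24.7 for SF3B3 to 107 for SF3B6, and the LSM ring from 4.51 for LSM6, the lowest of the 59, to 54.6 for LSM7. The U5 proteins were closer together, from 24.5 for EFTUD2 to 40.9 for SNRNP200. Among the helicases DDX42 (59) and DHX15 (53.8) were well above DHX16 (10.4) and DHX38 (12.1). These are levels of RNA, which in bulk samples cannot tell fewer cells from less RNA per cell, and the transcript lengths are those of the annotation.

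The libraries of a group differed by as much as the groups did for many subunits, mainly in shSRPK1. The median gap between the libraries of a group, on the log2 scale without its sign, was 0.11 in NT, 0.24 in shSRPK1 and 0.10 in oeSRPK1, and over all tested genes it was 0.13, 0.26 and 0.16. In shSRPK1 8 subunits (13.6%) differed by more than 0.5 between the libraries, where 24.0% of all tested genes did. In NT and oeSRPK1 0 of the 59 did, where 6.22% and 10.9% of all tested genes did. LSM3 (0.74), SNRPF (0.61), SNRPG (0.58), PRPF4 (0.55) and DDX23 (0.53) were higher in shSRPK1 1, and BUD31 (-0.65), LSM8 (-0.64) and PLRG1 (-0.56) were higher in shSRPK1 2. The gaps also had a direction in each group. In shSRPK1 43 of the 59 subunits were higher in library 1, with a median gap (1 minus 2) of 0.20, in NT 39 were, with a median of 0.07, and in oeSRPK1 23 were, with a median of -0.05. Over all tested genes the medians were -0.01, 0.00 and 0.00 in the same order.

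Among 97 other genes of the spliceosome pathway, grouped into 7 lists, 96 were tested. In edgeR 5 were higher and 3 lower in shSRPK1 against NT, 1 higher and 4 lower in oeSRPK1 against NT, and 5 higher and 9 lower in oeSRPK1 against shSRPK1, with median log2 fold changes of -0.06, -0.06 and -0.01. In the list of other U1, U2 and branch site factors (20 tested), 3 were higher in shSRPK1 and 4 lower in oeSRPK1 than in shSRPK1. PRPF39, a U1 associated protein, had 32.6 and 37.0 CPM in NT cells, 60.8 and 58.7 after shSRPK1 and 33.7 and 36.4 after oeSRPK1, so that both shSRPK1 libraries were far above the other 4. It rose by 0.78 ± 0.12 against NT (SE, edgeR adjusted p = 0.0127). DDX39A, an RNA helicase of mRNA export, was higher in oeSRPK1 than in NT (log2 fold change 0.73 ± 0.15 SE, edgeR adjusted p = 0.0142). In edgeR without NT 1, NT 2, oeSRPK1 1 or oeSRPK1 2 these calls were lost, with adjusted p between 0.0530 and 0.223 for PRPF39 and between 0.0896 and 0.145 for DDX39A. With only the libraries compared the PRPF39 call was lost (0.0573).

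The tri-snRNP and B complex list (14 tested) had AAR2, a U5 assembly factor, and PRPF4B, a kinase of tri-snRNP proteins, among its calls, in opposite directions. AAR2 fell in shSRPK1 (log2 fold change -0.50 ± 0.11 SE, edgeR adjusted p = 0.0361) and stood above that level in oeSRPK1 by 0.62 ± 0.12 (edgeR adjusted p = 0.0106). PRPF4B rose in shSRPK1 (log2 fold change 0.47 ± 0.11 SE, edgeR adjusted p = 0.0382) and stood at -0.57 ± 0.11 in oeSRPK1 against shSRPK1 (edgeR adjusted p = 0.0119). Of the other second step factors (11 tested), DHX35 fell in both transfected groups against NT (-0.56 ± 0.14 and -0.90 ± 0.14, edgeR adjusted p = 0.0449 and 0.00608), and SDE2 fell in shSRPK1 (log2 fold change -0.59 ± 0.15 SE, edgeR adjusted p = 0.0462). In the minor spliceosome list (11 tested), SNRNP48 rose in shSRPK1 (log2 fold change 0.58 ± 0.12 SE, edgeR adjusted p = 0.0258). SNRNP48, RNPC3 and PDCD7, all proteins of the U11/U12 particle, were below their shSRPK1 level in oeSRPK1 (-0.45 ± 0.12, -0.83 ± 0.19 and -0.61 ± 0.18, edgeR adjusted p = 0.0316, 0.0192 and 0.0432). Of the snRNP assembly genes (17 tested), PHAX, the export adaptor of snRNAs, was higher in oeSRPK1 than in shSRPK1 (log2 fold change 0.57 ± 0.12 SE, edgeR adjusted p = 0.0148), and CLNS1A, a chaperone of Sm proteins, fell in oeSRPK1 against NT (log2 fold change -0.38 ± 0.11 SE, edgeR adjusted p = 0.0388). RBM22 was the 1 call of the further PRPF19 and activation factors (18 tested), higher in oeSRPK1 than in shSRPK1 (log2 fold change 0.54 ± 0.14 SE, edgeR adjusted p = 0.0303), and the 5 exon junction complex genes had 0 calls in edgeR in each comparison. In edgeR without NT 1, NT 2, oeSRPK1 1 or oeSRPK1 2 the calls of AAR2, PRPF4B, DHX35, SDE2 and SNRNP48 in shSRPK1 against NT were lost (adjusted p between 0.0800 and 0.392), as was that of CLNS1A (0.167 to 0.261), while that of DHX35 in oeSRPK1 was lost without 3 of these, NT 1, oeSRPK1 1 and oeSRPK1 2 (0.0525 to 0.0853). Of the 7 calls named between the transfected groups, all were lost in edgeR without oeSRPK1 1 or oeSRPK1 2 (adjusted p between 0.0593 and 0.269). Those of SNRNP48, PDCD7, PHAX and RBM22 were lost without NT 1 or NT 2 as well (between 0.0535 and 0.0953), and with only the libraries compared (0.0521 to 0.0972). That fit also lost the calls of AAR2, PRPF4B, DHX35, SDE2 and SNRNP48 in shSRPK1 against NT (0.0816 to 0.108). These lists were written with earlier results of the same libraries known, and their counts are given beside the 9.18%, 20.6% and 22.8% of all tested genes.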

How the data were processed

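The authors deposited 1 table of whole-number read counts per gene for each of the 6 libraries, not normalised. The tools named per the submitters' processing notes are FastQC for read quality, Trimmomatic for trimming and STAR 2.5.3 for alignment, with hg38 as the build. How reads were assigned to genes (tool, annotation, strandedness) is not given in the sources used here. Per the labels, poly(A) libraries were made from RNA with an integrity number above 8 and sequenced as pairs of 101 bases. Entries that name no gene (8.13% to 11.1% of each table without a feature, 3.04% to 3.37% ambiguous and 11.95% to 13.1% not unique) stayed out of library sizes and tests.

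Of the 60483 identifiers, 56321 found a symbol in the table of gene names, 432 more in GENCODE 29 (GRCh38), and 3730 stayed without one. GENCODE 29 also gave positions, overlaps and the principal transcript length behind CPM per kilobase. In R 4.3.3 with edgeR 4.0.16, filterByExpr (minimum count 10, minimum total 15) kept 14732 genes, all 59 subunits among them. Counts were TMM-scaled, and glmQLFit (robust) and glmQLFTest were fitted to all 6 libraries by group, two-sided, with Benjamini-Hochberg adjustment over all tested genes. Intervals are at 95% and come from that fit. A floor of 3 counts covers counting error only, as the reads carried no molecular identifiers. The steps were tested on simulated data.

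The subunits, groups, lists and tests were chosen with earlier results of these data known. Named subunits are those called in any comparison, the one with the smallest p and the one with the most CPM in each of the 12 groups, and the highest and lowest fold change of each comparison. Other subunits were named after their values were seen. Of the other lists, at most 3 called genes each were named, by smallest p. One such gene is not reported here. The alternatives tried were scaling by DESeq2 size factors or by upper quartiles, no filter, a stricter filter (CPM of 5 in 2 libraries), DESeq2 1.42.0, limma-voom (limma 3.58.1), only the libraries compared, a replicate block, leaving out each library, and, added after the data were seen, leaving out the muscle markers. A group left with 1 library was assumed to vary like the others.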

Additional observations from a re-analysis of the deposited data

How the results depend on the processing

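Of 1725 values of the named genes under the alternatives, 51 had the opposite sign, all for differences that were not called, and 0 of the 405 alternatives of the 27 called differences did. The called differences were selected for lying far from 0 beside their SE, and the alternatives reuse the same libraries. A change of sign among them was therefore unlikely from the start, and its absence cannot show that the calls are stable. In shSRPK1 against NT the number of called subunits was 2 with upper-quartile scaling, a stricter filter or limma-voom (9.35%, 12.2% and 9.98% of all tested genes), 5 with no filter (9.17%) and 0 with only the libraries compared (0.903%), and in edgeR leaving out single libraries it ran from 0 to 17. In oeSRPK1 against NT it was 16 with only the libraries compared (44.2% of all) and ran from 0 to 17 over single omissions, and in oeSRPK1 against shSRPK1 it was 13 with no filter (22.03%, where 15.6% of all tested genes were called), 2 with only the libraries compared (10.4% of all) and ran from 0 to 23. Leaving out a library also leaves fewer residual degrees of freedom, and the cause of each other change was not tested. Samples with the same replicate number did not deviate together over all tested genes (correlations 0.01, -0.02 and 0.02). The labels do not say whether the numbers mark a shared day or batch, and these correlations cannot exclude it. With the replicate block edgeR called 1, 2 and 5 subunits (6.83%, 17.9% and 19.3% of all tested genes), and the calls of USP39 (adjusted p = 0.0584) and CWC22 (0.0610) were lost, as were 7 calls of other genes, SRPK1 in oeSRPK1 against shSRPK1 (0.0609) and AAR2, PRPF4B, DHX35, SDE2, SNRNP48 and CLNS1A in 1 comparison each (0.0522 to 0.0684). DESeq2 lost DHX35 in shSRPK1 against NT (0.0629), SNRNP48 in oeSRPK1 against shSRPK1 (0.0686) and CLNS1A in oeSRPK1 against NT (0.0606). Signs turned with upper-quartile scaling for SNRPD2 in shSRPK1 against NT (-0.0036), SNRNP200 in oeSRPK1 against shSRPK1 (-0.0077), SART3 (-0.0056) and LSM6 (-0.00918) in shSRPK1 against NT and LSM3 in oeSRPK1 against NT (-0.0384), with limma-voom for SF3A3 in oeSRPK1 against shSRPK1 (0.00087) and SNRPD2 in shSRPK1 against NT (-0.0021), and with no filter for SNRPB (-0.0096), SNRNP200 (-0.0589) and SART3 (-0.0309) in oeSRPK1 against shSRPK1 and for SART3 (-0.0064) and LSM3 (-0.0587) in oeSRPK1 against NT. LSM3 in oeSRPK1 against NT also turned with DESeq2 size factors (-0.00141), limma-voom (-0.0179), only the libraries compared (-0.0343) and the replicate block (-0.00192). Over single omissions the log2 fold change in shSRPK1 against NT ran from -0.43 to 0.219 for BUD31, -0.0356 to 0.119 for SNRPC, -0.0213 to 0.147 for SNRPB2, -0.238 to 0.239 for SNRPD2, -0.0493 to 0.087 for SART3, -0.382 to 0.0603 for BCAS2, -0.33 to 0.204 for DDX23, -0.0594 to 0.334 for EFTUD2, -0.0721 to 0.0951 for LSM6 and -0.138 to 0.0745 for PRPF19. In oeSRPK1 against NT it ran from -0.122 to 0.0545 for SNRPC, -0.0618 to 0.0299 for SF3B1, -0.156 to 0.107 for AQR, -0.0958 to 0.105 for LSM3 and -0.0293 to 0.222 for PRPF19. In oeSRPK1 against shSRPK1 it ran from -0.161 to 0.00894 for SNRPC, -0.172 to 0.0997 for SF3A3, -0.0768 to 0.13 for SNRPB, -0.336 to 0.147 for SNRPD2, -0.0486 to 0.037 for SNRNP200, -0.164 to 0.0321 for PRPF3, -0.217 to 0.0826 for AQR, -0.0692 to 0.0729 for SART3 and -0.00738 to 0.251 for PRPF19.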
